A study of Mus musculus with 9 samples.

Results

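Macrophages live between the seminiferous tubules of the testis and around their walls, and this account follows 10 genes used to mark them (Lyz1, Lyz2, C1qa, C1qb, C1qc, Mrc1, Csf1r, Cd68, Adgre1 and Cd14) in spermatogonia of mice on a vitamin A-deficient (VAD) diet. Every probe set of a mouse expression array that carried 1 of these symbols and no other was taken, which gave 16 probe sets for 10 genes, out of 45037 probe sets and 18193 named genes. The genes were picked with the group differences of these same arrays known, chiefly those at 25 weeks. Their differences are therefore a description. Where the fit over all probe sets called some of them, the calls are counted beside the share over the whole array and support nothing.

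All 9 arrays were of adult Balb/C mice, and the labelled cell type was spermatogonia, the germ cells at the base of the tubule. The 3 control arrays came from mice on a normal diet, 3 arrays from mice after 18 weeks of VAD and 3 from mice after 25 weeks of VAD. No age in weeks, and no feeding time for the controls, is given in the sources used here. A preparation pooled the testes of 2 mice. Per the labels' protocols, the supernatant holding interstitial cells was discarded after collagenase digestion, the remaining cells were plated overnight, and cells still in suspension were separated by sedimentation. The submitters put the purity above 90%, and 100 ng of total RNA went through an amplification of 2 cycles. Nothing says that the arrays of a group came from separate preparations, so p-values measure only the spread between these arrays, which may be technical.

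Tissue macrophages depend on CSF1 or IL34 signalling through the receptor CSF1R. They engulf dying cells, and in the testis they lie close to Leydig cells, which make testosterone. Lysozyme (Lyz1, Lyz2) cuts bacterial cell walls, and C1qa, C1qb and C1qc encode the chains of C1q, which starts the classical complement pathway and tags debris for uptake. Mrc1 encodes the mannose receptor CD206, Cd68 a glycoprotein of lysosomes, Adgre1 the surface antigen F4/80, and Cd14 the co-receptor that hands lipopolysaccharide to TLR4.

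The lysozyme genes are neighbours on chromosome 10 and the C1q genes lie side by side on chromosome 4, in the order C1qb, C1qc, C1qa. The lysozyme pair is shown first because its members are alike near their starts. The printed bases lie before the transcript, so they do not show which RNA a probe binds. Probe sequences of the array were not at hand. The sequences are the 120 bases before the start of each gene (RefSeq, build GRCm38.p6), both on the minus strand, at chr10:117292869-117292988 for Lyz1 and chr10:117282273-117282392 for Lyz2. Capitals mark the bases that differ between both genes.
Lyz1: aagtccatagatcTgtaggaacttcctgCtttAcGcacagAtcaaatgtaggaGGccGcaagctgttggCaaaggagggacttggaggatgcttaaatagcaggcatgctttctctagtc
Lyz2: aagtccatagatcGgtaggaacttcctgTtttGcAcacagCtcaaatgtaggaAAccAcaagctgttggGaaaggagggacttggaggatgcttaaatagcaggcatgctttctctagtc
Over these 120 bases, aligned without gaps, 111 were identical (92.5%). The first 50 bases of the transcripts shared 49 (98%), whereas the 130 bases further upstream shared 41 (31.5%).

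Promoter sequences of 6 of the 10 genes were at hand (Lyz1, Lyz2, C1qb, C1qc, Mrc1 and Cd68), and the 250 bases before each start were searched on both strands. The core of the PU box, GAGGAA, which the macrophage factor PU.1 (gene Spi1) is known to bind, was present in 4 of the 6 and in 23.25% of 32851 mouse promoters of the same length. The matches, in capitals within 40 bases, are shown because these 4 genes are followed across the arrays. They lie at chr4:136886208-136886247 for C1qb and chr4:136893085-136893124 for C1qc (both minus strand), chr2:14229362-14229401 for Mrc1 (plus strand) and chr11:69666373-69666412 for Cd68 (minus strand).
C1qb: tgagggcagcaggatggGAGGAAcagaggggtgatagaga
C1qc: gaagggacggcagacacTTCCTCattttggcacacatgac
Mrc1: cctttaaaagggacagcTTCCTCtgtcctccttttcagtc
Cd68: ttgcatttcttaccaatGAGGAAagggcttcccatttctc
The Mrc1 promoter held 3 matches, of which the one nearest the start is printed, 35 to 30 bases before it, and in C1qb the match lay 30 to 25 bases before the start. An AP-1 element, TGANTCA, was found in Cd68 (1 of 6, against 6.75% of all promoters), and the lysosomal CLEAR box, TCACGTG, in 0 of 6 (3.13% of all). A match is a description of the letters and shows no binding.

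Levels are given as quantile-normalized log2(signal + 3.26), called log2 levels below, and differences between groups are on the same scale, which understates changes of dim probe sets. Control replicate 3 and 25-week replicate 3 were dim, with trimmed mean signals of 23.0 and 23.3 against 55.6 to 186 on the other 7 arrays. Over the 27022 probe sets that passed a filter on low signal, they correlated with each other at 0.89 and with the rest at 0.78 to 0.81. The rest correlated at 0.94 to 0.98. These arrays, called the low-signal pair, received a term of their own in the fit, so each 18-week difference is set mainly by the other controls. The 25-week arrays of replicates 1 and 2 carried mean signals of 303 and 380 on the poly-A controls, spiked RNAs that follow the labelling, against 5.31 to 11.6 on all other arrays. The 25-week group thus held 1 low-signal array and 2 arrays of strong poly-A signal, and differences are also given below for the low-signal pair and the other arrays separately.

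Over the 10 genes, each by its brightest usable probe set, the median difference from control was 1.03 at 25 weeks and 0.12 at 18 weeks. The first was 0.53 without the 25-week arrays of strong poly-A signal, 0.51 with a pseudocount of 16 and 1.75 on the scaling as deposited. Over all 27022 probe sets that passed the filter on low signal (a mean of at least 3.39) the medians were -0.01 and -0.01, and 0.93 at 25 weeks on the scaling as deposited. At 25 weeks 14 of the 16 probe sets lay above control, ranging from -0.39 to 2.88, and at 18 weeks 8 lay above and 8 below, ranging from -0.44 to 1.40. In bulk RNA, more cells of a type and more RNA per cell cannot be told apart.

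**Figure D1:**
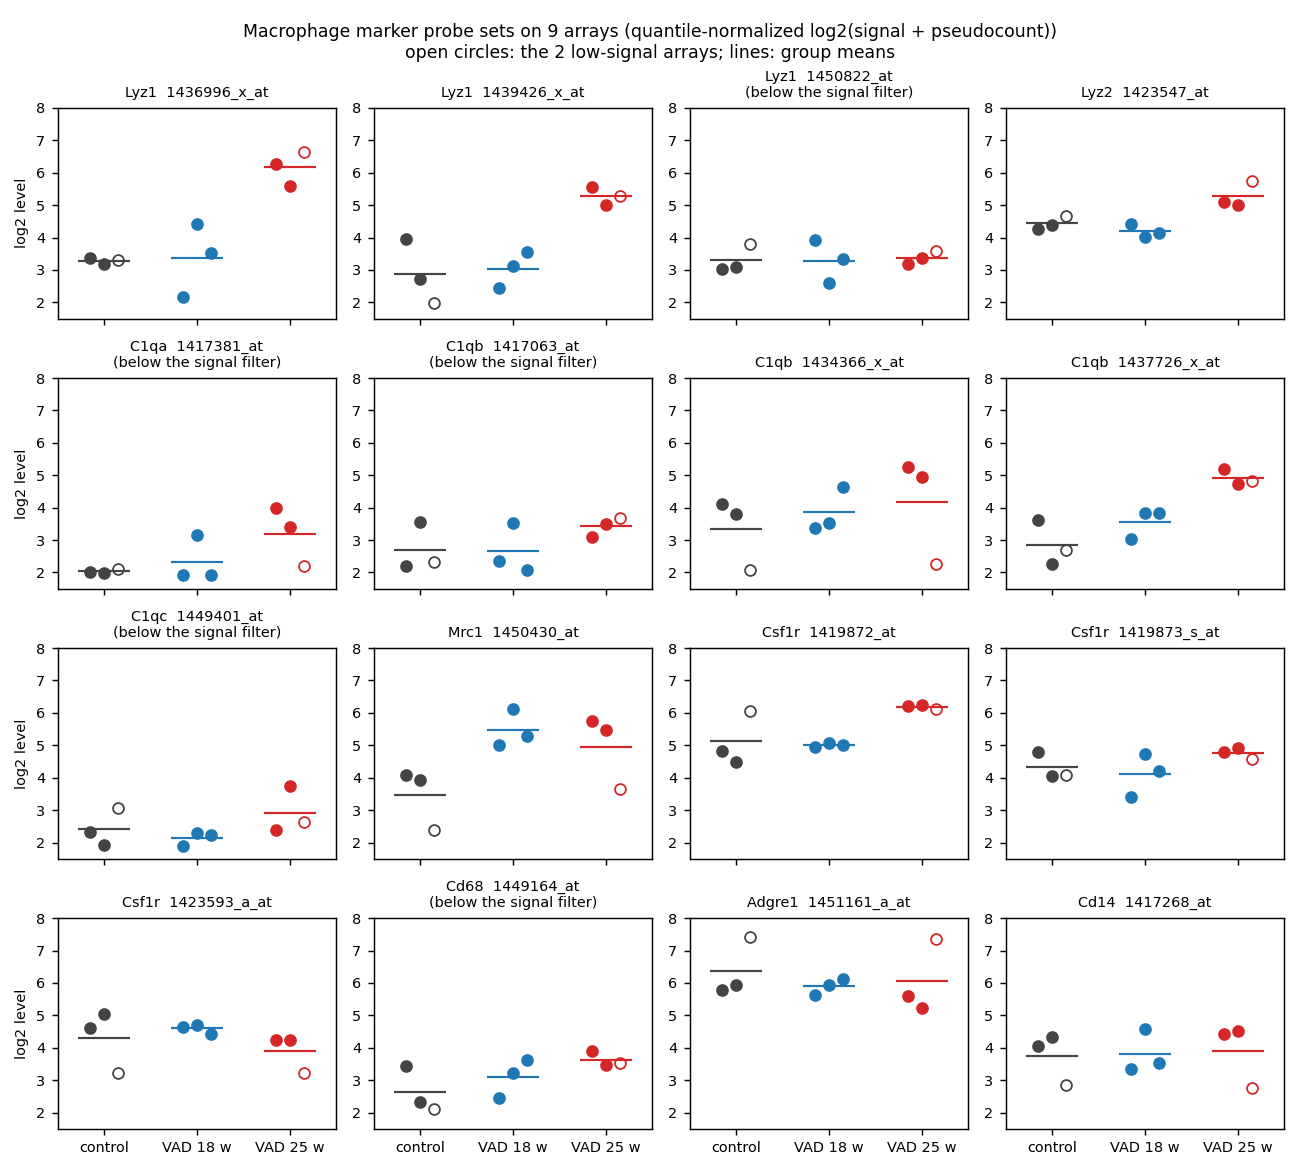
Log2 level (quantile-normalized log2(signal + pseudocount), vertical axis) of the 16 probe sets on each of 9 arrays, by group; open circles are the 2 arrays of the low-signal pair and lines are group means of 3 arrays. The 25-week points of both upper Lyz1 probe sets lie between 4.99 and 6.64, above every control and 18-week point, while Adgre1 and Cd14 overlap in all groups.

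Lysozyme is given first. Probe set 1436996_x_at of Lyz1 read 3.37, 3.19 and 3.31 on the control arrays, 2.17, 4.41 and 3.51 at 18 weeks, and 6.27, 5.59 and 6.64 at 25 weeks. All 3 of the 25-week arrays were above all 6 others, and the 18-week arrays lay on both sides of the controls. The difference from control was 2.88 ± 0.48 (SE, n = 3 per group) at 25 weeks and 0.20 ± 0.51 at 18 weeks. Because the controls lay at the dim end, its size depends on the pseudocount, at 3.23 with a pseudocount of 1 and 1.93 with one of 16. As deposited, its signal was 4.16 to 4.73 in controls, 1.29 to 15.4 at 18 weeks and 36.8 to 210 at 25 weeks.

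A second Lyz1 probe set, 1439426_x_at, read 3.95, 2.72 and 1.97 in controls, 2.44, 3.14 and 3.55 at 18 weeks, and 5.56, 4.99 and 5.28 at 25 weeks. The groups again separated at 25 weeks and mixed at 18 weeks, with differences of 2.40 ± 0.46 and -0.06 ± 0.49. The third, 1450822_at, stayed under the filter on low signal, at 3.02, 3.11 and 3.81 in controls, 3.93, 2.59 and 3.34 at 18 weeks and 3.18, 3.37 and 3.60 at 25 weeks. Its groups overlapped throughout, and its 25-week difference was 0.07. The suffix _x_at marks probe sets whose probes can also match other transcripts, so the Lyz1 values may include Lyz2 RNA.

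Lyz2, the lysozyme made by macrophages across tissues, read 4.28, 4.40 and 4.68 in controls, 4.43, 4.02 and 4.15 at 18 weeks, and 5.10, 5.002 and 5.73 at 25 weeks on its single probe set. The 25-week arrays were all above the 6 others by a narrower margin, and the difference was 0.83 ± 0.25 (1.78-fold) at 25 weeks and -0.08 ± 0.27 at 18 weeks. Its level on the low-signal pair differed by 1.05, and that on the other arrays by 0.72.

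C1q transcripts were dim. C1qa, with 1 probe set, read 2.01, 1.98 and 2.12 in controls, 1.91, 3.15 and 1.93 at 18 weeks, and 4.00, 3.40 and 2.19 at 25 weeks. Each 25-week array exceeded each control, but the third by only 0.07 over control replicate 3, and the probe set failed the filter. C1qc, also under the filter, read 2.31, 1.92 and 3.06 in controls, 1.88, 2.28 and 2.24 at 18 weeks, and 2.40, 3.73 and 2.64 at 25 weeks, with control and 25-week values mixed. The 25-week differences were 1.16 for C1qa and 0.49 for C1qc, with no fitted error because neither was tested.

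For C1qb, 3 probe sets gave 3 different pictures. On 1437726_x_at the levels were 3.61, 2.28 and 2.70 in controls, 3.03, 3.83 and 3.83 at 18 weeks and 5.20, 4.74 and 4.83 at 25 weeks. Here the 25-week arrays stood clear of all others, by 2.06 ± 0.41 over control, and the 18-week difference was 0.64 ± 0.44. On 1434366_x_at the levels were 4.11, 3.79 and 2.09 in controls, 3.37, 3.54 and 4.64 at 18 weeks, and 5.27, 4.95 and 2.26 at 25 weeks. Both remaining 25-week arrays were high and the low-signal one was as dim as its control, which left 0.83 ± 0.41. The dimmest, 1417063_at, read 2.19, 3.57 and 2.32 in controls, 2.34, 3.52 and 2.09 at 18 weeks and 3.11, 3.50 and 3.67 at 25 weeks, failed the filter and overlapped between groups. It alone lacks the suffix _x_at, so the values of both brighter C1qb probe sets may include other transcripts.

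Mrc1, the mannose receptor, was the gene of the 10 that stood above control at 18 weeks too. It read 4.08, 3.94 and 2.40 in controls, 4.998, 6.11 and 5.28 at 18 weeks, and 5.74, 5.46 and 3.65 at 25 weeks. Every 18-week array was above every control; at 25 weeks the low-signal array lay among the controls, although it was above its low-signal counterpart. The differences were 1.48 ± 0.31 (2.79-fold) at 25 weeks and 1.40 ± 0.33 (2.63-fold) at 18 weeks, and 0.08 ± 0.33 between 25 and 18 weeks. Without the term for the low-signal pair, the 18-week difference was 1.99.

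Csf1r, the receptor for the macrophage growth factor CSF1, had 3 probe sets that disagreed. On 1419872_at it read 4.83, 4.47 and 6.07 in controls, 4.96, 5.08 and 5.02 at 18 weeks, and 6.20, 6.23 and 6.13 at 25 weeks. The 25-week arrays were all above the controls, but control replicate 3 came within 0.06 of its 25-week counterpart, and the fitted difference was 1.06 ± 0.29 at 25 weeks and 0.12 ± 0.31 at 18 weeks.

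On Csf1r 1419873_s_at the levels were 4.79, 4.07 and 4.10 in controls, 3.39, 4.74 and 4.20 at 18 weeks and 4.79, 4.93 and 4.58 at 25 weeks, overlapping between groups, with 0.45 ± 0.36 at 25 weeks. On 1423593_a_at they were 4.62, 5.05 and 3.23 in controls, 4.64, 4.71 and 4.43 at 18 weeks, and 4.23, 4.25 and 3.24 at 25 weeks. That probe set was lower than control at 25 weeks by a value within its spread, -0.39 ± 0.28, and higher by 0.51 on the scaling as deposited.

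Of the remaining surface and lysosomal markers, Cd68 read 3.45, 2.33 and 2.11 in controls, 2.46, 3.22 and 3.64 at 18 weeks, and 3.89, 3.48 and 3.53 at 25 weeks. Its 25-week arrays lay just above all controls, by a fitted 1.003, and its mean level failed the filter. Adgre1, which encodes F4/80, read 5.77, 5.93 and 7.42 in controls, 5.64, 5.95 and 6.13 at 18 weeks, and 5.59, 5.23 and 7.36 at 25 weeks. The groups overlapped, and the differences were -0.32 ± 0.21 at 25 weeks and 0.12 ± 0.22 at 18 weeks; on the scaling as deposited the 25-week value was 0.69.

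Cd14 read 4.05, 4.33 and 2.84 in controls, 3.35, 4.56 and 3.52 at 18 weeks, and 4.42, 4.51 and 2.76 at 25 weeks. Its groups overlapped at both times, with 0.16 ± 0.38 at 25 weeks and -0.44 ± 0.40 at 18 weeks. The label "macrophage markers" thus covered genes that differed among themselves at 25 weeks. Every 25-week array was above every control on 2 of 3 Lyz1, 1 of 3 C1qb and 1 of 3 Csf1r probe sets and on those of Lyz2, C1qa and Cd68, and the groups overlapped for C1qc, Mrc1, Adgre1 and Cd14.

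**Figure D2:**
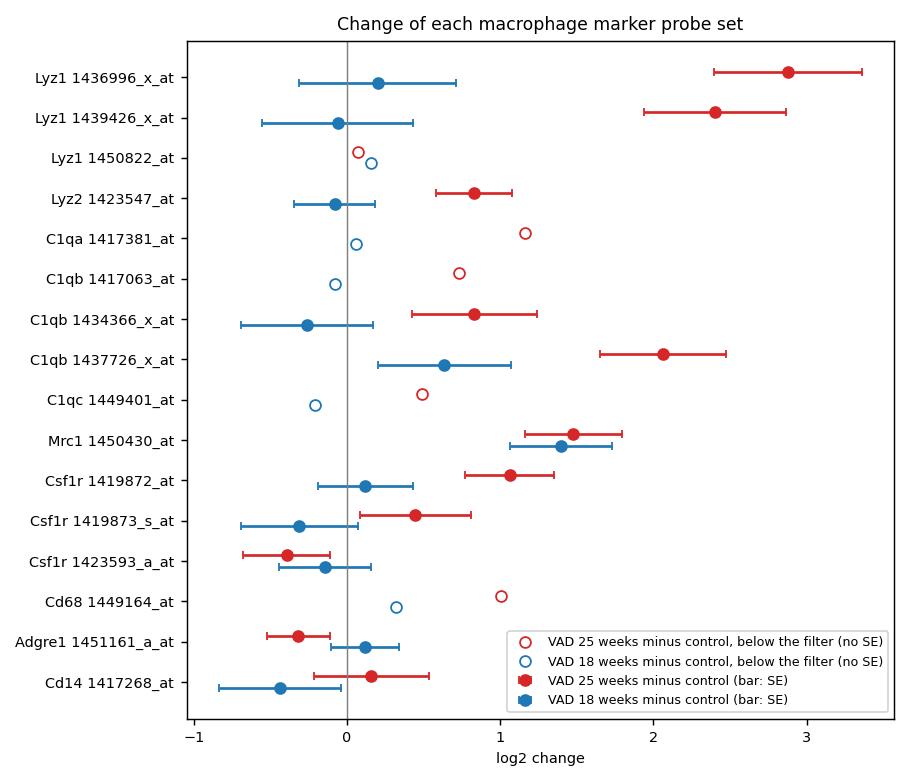
Difference from control in log2 units (horizontal axis) of each probe set at 25 weeks (red) and 18 weeks (blue); bars are the SE of the limma fit, and open points were below the signal filter and have none. The 25-week points reach 2.88 for Lyz1, and the 18-week point of Mrc1, 1.40, lies close to its 25-week point, 1.48.

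At 25 weeks, 11 of the 16 probe sets (7 genes) passed the filter, and 6 of them, in 5 genes, were higher than control at a limma adjusted p (Benjamini-Hochberg) under 0.05. Over all probe sets tested, 8.51% were called higher and 6.29% lower. The called probe sets were both Lyz1 _x_at probe sets, Lyz2, C1qb 1437726_x_at, Mrc1 and Csf1r 1419872_at, and 0 were called lower. With the replicate number as a block, Lyz2 and Csf1r 1419872_at were not called, and all calls at 25 weeks numbered 2591 in place of 3999. Because the genes were chosen on this comparison and high 25-week levels also helped dim ones through the filter, nothing is read from that count. Of the 16 probe sets, 7 (6 genes) had every 25-week array above every control, which held for 7.03% of all 45037.

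At 18 weeks limma called 0 of the 11 tested probe sets, where 1.32% of all were called higher and 0.133% lower. Mrc1 was the 1 gene of 7 with an unadjusted p under 0.05, which 16.5% of all tested probe sets had. Mrc1 was the 1 probe set of 16 with every 18-week array above every control (8.82% of all). Between 25 and 18 weeks 0% of all probe sets were called by limma with the low-signal term, although 3124 had an unadjusted p under 0.05, so this comparison cannot separate the genes. Lyz1 was 2.68 ± 0.51 higher at 25 than at 18 weeks and Lyz2 0.91 ± 0.27, and 6 of 16 probe sets (5 genes) had every 25-week array above every 18-week array (6.69% of all). The comparisons with control share the control arrays, and both 25-week comparisons share the 25-week arrays.

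The fit without the low-signal term called 0 of the 27022 probe sets in each comparison, the 10 genes included, against 3999 at 25 weeks and 394 at 18 weeks with it. Its unadjusted p was under 0.05 for 3211 probe sets at 25 weeks, 1955 at 18 weeks and 1031 between them. With both low-signal arrays left out, 5 probe sets of the 10 genes were called at 25 weeks (Lyz2 was lost), 1 at 18 weeks (Mrc1) and 3 between 25 and 18 weeks. With the 25-week arrays of strong poly-A signal left out, which leaves 1 array of that group assumed to vary like the others, Lyz1 1436996_x_at was the single probe set of these genes called at 25 weeks. Its control and 18-week means, 3.29 and 3.36, were under the filter, so it was tested because of the 25-week level on which it was chosen, and the call is no sign of stability.

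**Figure D3:**
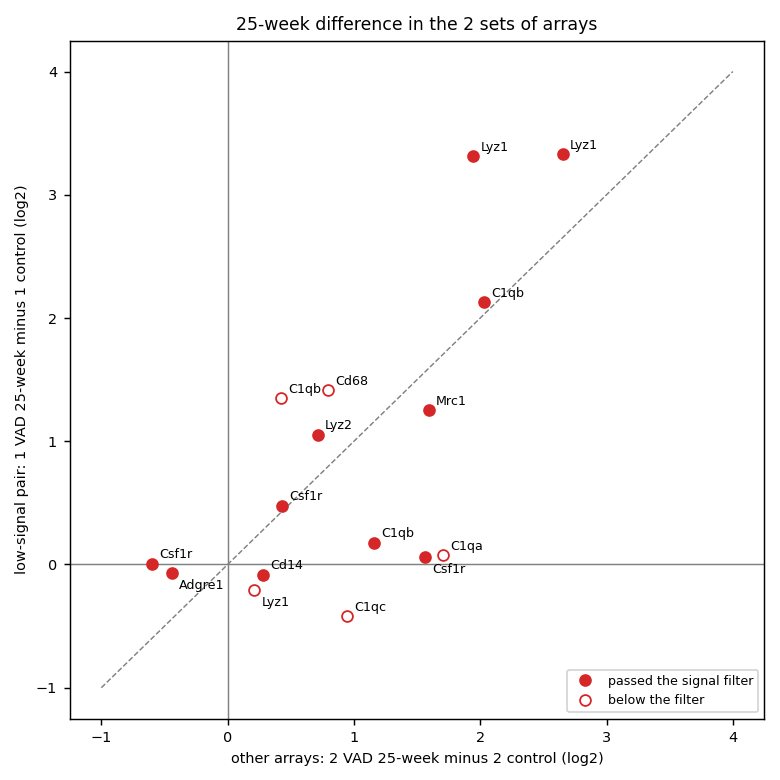
Difference between 25 weeks and control in log2 units for each probe set, from the 4 other arrays (2 per group, horizontal axis) and from the low-signal pair (1 per group, vertical axis); the dashed line marks equal values and open points were below the filter. Both high Lyz1 probe sets lie at 3.33 and 3.31 on the pair, whereas Csf1r 1419872_at lies at 0.06 on the pair and 1.56 on the others.

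Taken separately, the pair of low-signal arrays and the other arrays gave like differences for some probe sets and unlike ones for others. Lyz1 1436996_x_at differed by 3.33 on the pair and 2.65 on the others, C1qb 1437726_x_at by 2.13 and 2.03, and Mrc1 by 1.25 and 1.59. By contrast, C1qa differed by 0.07 on the pair and 1.70 on the others, and C1qb 1434366_x_at by 0.18 and 1.16. As deposited, the pair's signals (control, then 25-week) were 0.82 and 0.94 for C1qa, and 0.77 and 1.07 for C1qb 1434366_x_at. These lay below the pseudocount, so the pair cannot show whether either probe set differed. The larger differences came from the other arrays, among which both 25-week arrays carried strong poly-A signal. The part of that signal in their values was not tested.

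A wider set of macrophage genes, listed from textbook knowledge with earlier results of these data known, held no called gene. Of 27 such genes on the array 16 passed the filter, among them the scavenger receptor Msr1 and the Fc receptors Fcgr1 and Fcgr3, and limma called 0 at 25 or 18 weeks. Over all tested probe sets it called 8.51% higher and 6.29% lower at 25 weeks, and 1.32% and 0.133% at 18 weeks. An unadjusted p under 0.05 was found for 4 of the 16 at 25 weeks and 1 at 18 weeks, where 30.1% and 16.5% of all tested probe sets had one. Their median differences were -0.03 and -0.14. The 4 at 25 weeks, named here after their values were seen, were the platelet factor Pf4 (1.80 ± 0.57), the cathepsin Ctss (1.54 ± 0.51) and the lipid carrier Apoe (1.49 ± 0.49), all higher, and Aif1, the microglial antigen IBA1, which was lower (-0.52 ± 0.21). Their adjusted p-values from limma were 0.056, 0.065, 0.065 and 0.12, and Apoe passed with the replicate number as a block. Spi1, which encodes PU.1, differed by -0.51 ± 0.27 at 25 weeks (limma adjusted p = 0.24). The haemoglobin scavenger receptor Cd163 was below the filter, with a 25-week difference of 0.36. On the linear normalized scale the summed level of the 16 genes was 685 to 885 in controls, 666 to 810 at 18 weeks and 798 to 881 at 25 weeks. The same sum over the 7 tested genes of the 10 was 131 to 271, 135 to 217 and 264 to 412. Bright genes weigh most in such sums. In controls these were Aif1 and Fcgr3 among the 16 (means of 7.98 and 7.77) and Adgre1 among the 7 (6.37). On control replicate 3, a low-signal array, Adgre1 read 7.42.

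Markers shared by all leukocytes showed no call either. Of 12 on the array 6 passed the filter, limma called 0 (1 had an unadjusted p under 0.05 at either time) and their median difference was -0.55 at 25 weeks and -0.55 at 18 weeks. Ptprc, which encodes CD45 and is carried by all leukocytes, was below the filter on both of its probe sets, with 25-week differences of 1.03 and 0.02, and Tyrobp, an adaptor of myeloid receptors, was below it at 0.48. At 25 weeks limma called 0 of 3 tested genes of T and NK cells, 6 of B cells, 4 of neutrophils and 2 of mast cells, and 1 of these 15, the neutrophil gene Ltf, had an unadjusted p under 0.05. Since 8.51% of all tested probe sets were called higher and 6.29% lower at 25 weeks, 0 calls in lists this short say little.

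In the pathways that the 10 genes belong to, calls are counted beside the shares over all tested probe sets. These were 8.51% higher and 6.29% lower at 25 weeks, and 1.32% and 0.133% at 18 weeks, so 0 or 1 call in a short list says little. In the complement list limma called 0 of 18 tested genes at either time, and 2 had an unadjusted p under 0.05 at each (medians 0.19 at 25 weeks and 0.10 at 18 weeks). The anaphylatoxin receptor C3ar1 differed by 0.23 ± 0.52 at 25 weeks (limma adjusted p = 0.81). In CSF1 receptor signalling 1 of 9 was called higher at 25 weeks. That gene was Cbl, a ubiquitin ligase that removes the receptor from the surface, at 0.64 ± 0.16 (limma adjusted p = 0.025), but another Cbl probe set was lower by -0.91 (limma adjusted p = 0.0027). The ligand Csf1 differed by -0.33 ± 0.33 (limma adjusted p = 0.54), the related receptor chain Csf2ra by -0.45 ± 0.32 (limma adjusted p = 0.38), and the other ligand, Il34, was below the filter.

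Downstream of CD14, limma called 0 of 12 tested genes of the TLR4 pathway at either time, 1 (the adaptor Myd88) had an unadjusted p under 0.05 at 25 weeks, and Tlr4 and its partner Ly96 were below the filter. Of 8 tested genes of antigen presentation on MHC class II, which macrophages share with dendritic and B cells, 1 was called, in the opposite direction to lysozyme. H2-Ab1, a chain of the class II molecule, read 6.08, 6.06 and 4.65 in controls, 5.84, 5.30 and 5.08 at 18 weeks, and 4.92, 4.70 and 2.37 at 25 weeks. The 25-week arrays were below both brighter controls, and the low-signal control lay among them. The difference at 25 weeks was -1.60 ± 0.29 (limma adjusted p = 0.0054). Its other probe sets differed by -1.13 and -0.71 and did not pass (limma adjusted p = 0.068 and 0.084), and on the scaling as deposited H2-Ab1 was lower by -0.53 and did not pass (limma adjusted p = 0.31). Cd74, the invariant chain of class II, differed by 0.37 ± 0.29 (limma adjusted p = 0.42).

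Genes of the lysosome, where Cd68 resides, were split: 3 of 15 tested were called higher at 25 weeks (8.51% of all tested), 0 lower, and the median difference was -0.06. An unadjusted p under 0.05 in limma was found for 8 of the 15, against 30.1% of all tested probe sets. Beside the 3 called genes these were Ctsb and Gusb, higher, and Ctsd (-0.62), Ctsa (-0.64) and Mcoln1 (-0.97), lower, named after their values were seen. Psap, the precursor of the saposins that help digest sphingolipids, rose by 1.05 ± 0.28 (limma adjusted p = 0.028). Scarb2, which carries glucocerebrosidase to lysosomes, rose by 1.47 ± 0.44 (limma adjusted p = 0.046), and Npc2, which moves cholesterol out of them, by 0.44 ± 0.12 (limma adjusted p = 0.034). A second Psap probe set was called too, at 1.36 (limma adjusted p = 0.022), and a second Scarb2 probe set, below the filter, differed by -0.60. Other tested Npc2 probe sets differed by 0.28 and 0.39 and were not called (limma adjusted p = 0.22 and 0.48). Without the low-signal pair the brightest probe sets of all 3 genes lost their calls (limma adjusted p = 0.085, 0.072 and 0.10). With the replicate number as a block Scarb2 and Npc2 did not pass (limma adjusted p = 0.097 and 0.074).

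The lists of Sertoli and Leydig cells had medians above 0 at 25 weeks, when lysozyme and Mrc1 were higher, and at 18 weeks, when lysozyme was not. Of 17 tested Sertoli cell genes, 12 were called higher at 25 weeks (8.51% of all tested) and 7 at 18 weeks (1.32%), 0 lower, with medians of 1.51 and 1.68. With the replicate number as a block 8 were called at 25 weeks. In limma 15 of the 17 had an unadjusted p under 0.05 at each time, against 30.1% and 16.5% of all tested probe sets. Among those at 25 weeks Gata4, named after its values were seen, was lower, at -0.98 ± 0.34 (limma adjusted p = 0.076). At 18 weeks Gata4 differed by -0.38 ± 0.36. Gja1, which encodes a connexin of gap junctions, read 2.94, 2.46 and 1.89 in controls, 5.21, 6.70 and 6.04 at 18 weeks and 5.93, 5.72 and 6.47 at 25 weeks. Every VAD array was thus above every control, by 3.61 ± 0.40 at 25 weeks (limma adjusted p = 0.00056). Clu, which encodes clusterin, rose by 3.35 ± 0.68 at 25 weeks (limma adjusted p = 0.0089), and the defining Sertoli gene Sox9 was below the filter. The summed Sertoli level was 281 to 374 in controls, 898 to 2766 at 18 weeks and 1118 to 2145 at 25 weeks.

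Leydig cells, which lie among the macrophages between the tubules, gave 2 called genes of 6 at 25 weeks and 0 at 18 weeks (medians 1.29 and 0.98), and 1 of 6 at 25 weeks with the replicate number as a block. In limma 3 of the 6 had an unadjusted p under 0.05 at 25 weeks and 4 at 18 weeks, all higher. Over all tested probe sets 30.1% and 16.5% had one. Cyp17a1, an enzyme of androgen synthesis, rose by 2.21 ± 0.51 (limma adjusted p = 0.015), whereas Star, which brings cholesterol to mitochondria, differed by 0.78 ± 0.52 (limma adjusted p = 0.34). Another tested Star probe set differed by 0.02 (limma adjusted p = 0.98). The summed Leydig level was 162 to 244 in controls, 246 to 743 at 18 weeks and 397 to 447 at 25 weeks. Of 7 tested genes of myoid and endothelial cells limma called 0 at 25 weeks, and 1 (Myh11) had an unadjusted p under 0.05. At 18 weeks Lyz1 and Lyz2 overlapped control, while Gja1 and Mrc1 lay above it on every array. The part of these cells in the levels of the 10 genes was not tested.

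Of 12 tested spermatogonial genes 2 were called higher at 25 weeks (8.51% of all tested), 1 at 18 weeks (1.32%) and 0 lower. Their medians were above 0 too, at 0.52 at 25 weeks and 0.32 at 18 weeks. Their summed level was 3175 to 3693 in controls, 4068 to 4461 at 18 weeks and 3581 to 4823 at 25 weeks. That sum was set mainly by Ddx4, whose group means were 11.39, 11.61 and 11.54. In controls Id4 and Dazl averaged 8.12 and 8.01, but Zbtb16 and Kit only 3.66 and 3.01 (genes named after their values were seen). Ret, Sall4 and Lin28a were below the filter, so the sum does not show how far the label of spermatogonia holds.

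**Figure D4:**
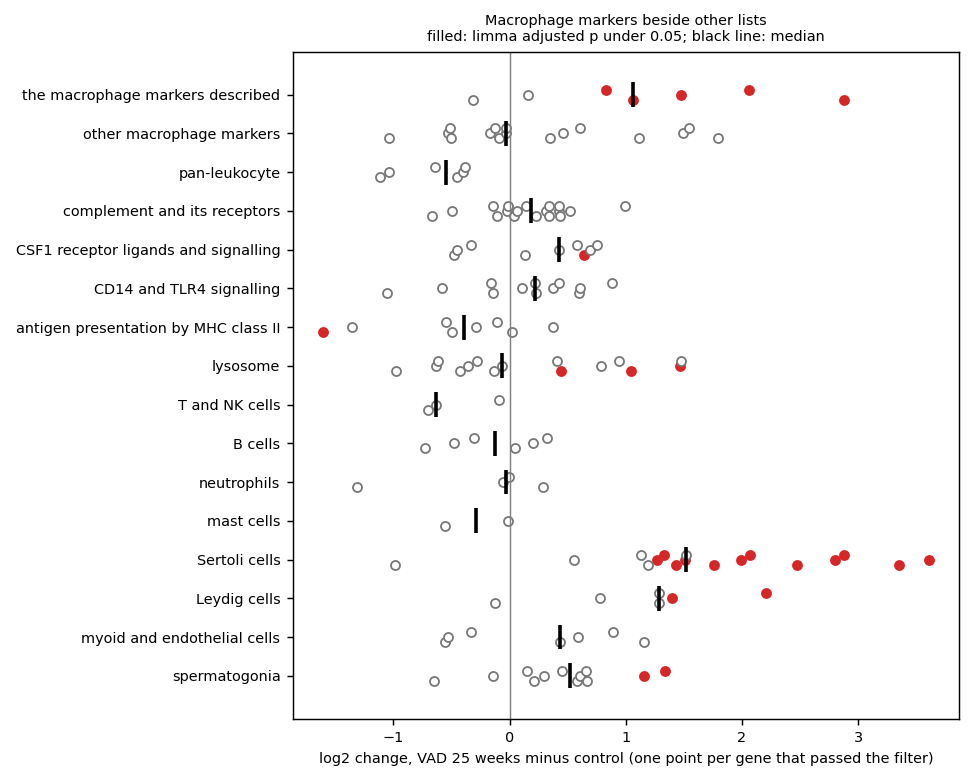
Log2 difference between 25 weeks and control (horizontal axis) of every gene that passed the signal filter, by list (rows); filled points had a limma adjusted p under 0.05 and black lines are medians of the tested genes. The 7 tested genes of the 10 run from -0.32 to 2.88, other macrophage and leukocyte lists have no filled point, and 12 of 17 Sertoli cell genes are filled.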

How the data were processed

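Expression was measured on 9 single-colour Affymetrix arrays, 3 per group. The deposited intensity values are linear signals per probe set, made by the authors with MAS5 per the submitters' processing notes (version and scaling target: not given in the sources used here). Detection calls were left aside. Signals were transformed as log2(signal + 3.259), the pseudocount being their 25th percentile, and quantile-normalized. The 64 control probe sets were dropped, and 27022 of 45037 probe sets, those whose mean reached the 40th percentile, were tested. Of 45101 probe sets, 34958 had 1 symbol in the platform annotation, 932 several and 9211 none; all 16 symbols used matched RefSeq's gene table.

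Groups were compared with limma 3.58.1 in R 4.3.3 (lmFit, eBayes with trend) over all arrays, with group and a term for arrays of low signal (trimmed mean below 0.5 of the median array's, trimming 2% at both ends), at a Benjamini-Hochberg adjusted p under 0.05. The method was tested on simulated data. The number of arrays limits the precision. The members, lists and that term were chosen with earlier results of these data known. Named were all probe sets of the 10 genes, up to 4 called genes per other list by smallest p, and fixed genes of each pathway; C3 and Insl3 had no probe set of a single symbol, and Msr1, Fcgr1 and Fcgr3 are named in addition as examples, chosen after their values were seen. The brightest tested probe set stood for a gene, _x_at and _s_at last. Deviations of same-numbered control and 25-week arrays correlated at 0.52 to 0.69, those of pairs with 18-week arrays at -0.0047 to 0.075. With the low-signal pair left out, the difference between replicates 1 and 2 of control and that of 25 weeks correlated at -0.03. The fit with the replicate number as a block is given where it changes a call at 25 weeks. Alternatives covered scaling, pseudocount, filter, variance trend, array weights, the low-signal term and leaving out each array.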

Additional observations from a re-analysis of the deposited data

Results flagged for a closer look

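The poly-A control probe sets, which report on spiked RNAs and were used in no comparison, had a mean signal of 303 on 25-week replicate 1 and 380 on 25-week replicate 2. The highest control array read 10.0, so the lower of these was 30.3 times as high. The third 25-week array read 5.84, within the range of the controls.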

How the results depend on the processing

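With group as the only term, limma called 0 probe sets at 25 weeks and 0 at 18 weeks. Without both low-signal arrays it called 1072 at 18 weeks and 443 between 25 and 18 weeks. On the deposited scaling, where the median of all tested probe sets was 0.93, 0.12 and 0.82, it called 10578 at 25 weeks (10571 higher, 7 lower), 134 at 18 weeks and 1806 between them, and the median difference of the 10 genes was 1.75 at 25 weeks and 1.53 between 25 and 18 weeks. Median centring split the calls as 2790 higher and 822 lower at 25 weeks, and 317 and 165 at 18 weeks, against 2300 and 1699, and 358 and 36, and put the median of all tested probe sets between 25 and 18 weeks at 0.15. With a pseudocount of 16 the median difference of the 10 genes was 0.51 at 25 weeks and 0.38 between 25 and 18 weeks. No variance trend gave 2378 and 0 calls at 25 and 18 weeks, and array weights 6578, 1086 and 1547. Leaving out the 25-week arrays of strong poly-A signal, an alternative chosen after seeing the data, gave 220 calls at 18 weeks and 595 between 25 and 18 weeks, with medians of 0.53 at 25 weeks and 0.081 between 25 and 18 weeks. Leaving out 1 array at a time gave 1788 to 4173 calls at 25 weeks, 37 to 1038 at 18 weeks and 0 to 393 between them. The cause of these shifts was not tested.

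A replicate block beside the low-signal term called 2591 probe sets at 25 weeks and 19 at 18 weeks, and Lyz2 and Csf1r 1419872_at lost their calls. Of the other genes named it ended the 25-week calls of Scarb2, Npc2 and Fads1.

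The 25-week differences of both Lyz1 _x_at probe sets, Lyz2, C1qb 1437726_x_at, Mrc1 and Csf1r 1419872_at were above 0 under all 22 alternatives, from 1.93 to 3.62 for Lyz1 1436996_x_at and from 0.06 to 2.20 for Csf1r 1419872_at. So were those of C1qa, C1qb 1417063_at and 1434366_x_at, Csf1r 1419873_s_at and Cd68, which were not called in the main fit. The genes were chosen on this comparison and the alternatives reuse the same arrays, so the constant sign supports nothing. Lyz2 lost its call whichever array was left out, and Mrc1 lost its call without 25-week replicate 1. Csf1r 1419872_at lost its call without control replicate 1 or 2 or 25-week replicate 1 or 2. Mrc1 gained a call at 18 weeks without control replicate 3 or 25-week replicate 3. The dim signals of C1qa, C1qc and Cd68 limit what these arrays show of them.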
